A study of Mus musculus with 72 samples.

Results

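The chemokines and lymphotoxin genes that organise lymphoid follicles were followed in mouse colon during acute colitis. The set has 8 genes, named by symbol, of the 18193 genes that the array table covers: the chemokines Cxcl13, Ccl19 and Ccl20 with their receptors Cxcr5, Ccr7 and Ccr6, the lymphotoxin subunit Ltb, and the lymphotoxin beta receptor Ltbr. Each gene was represented by its brightest probe set that carries a single gene symbol. Of the 8 genes, 7 had such a probe set and 3, Cxcl13, Ccl20 and Ltbr, were bright enough to be tested. Cxcr5, Ccr7, Ccr6 and Ltb lay at or near the floor of the table. The one probe set of Ccl19 carries 10 symbols, so Ccl19 has no value.

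Lymphoid follicles of the gut form where stromal cells receive lymphotoxin from lymphoid cells through Ltbr, a receptor that signals largely through the non-canonical NF-kB pathway. The stroma then makes Cxcl13, which draws B cells through Cxcr5, and Ccl19, which draws T cells and dendritic cells through Ccr7. Ccl20 is made by the epithelium over follicles and by inflamed epithelium under NF-kB control, and draws Ccr6-bearing B cells, T cells and dendritic cells. In mice, macrophages and other phagocytes can also make Cxcl13.

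All mice were wild type Balb/c, and each of the 72 arrays is counted as the colon of 1 mouse. The labels number the samples of a group without stating that each number is a separate animal; where numbers share one, p-values measure only the spread between samples. Naive mice (n = 8) had no colitis and no treatment. The other 64 mice received trinitrobenzene sulfonic acid (TNBS), a hapten given into the rectum with ethanol, at 70 µg per g body weight, and were killed on day 4. They were untreated (n = 8), or were injected 1 hour before with 10 mg/kg of a control IgG2a antibody that binds human CD20 (n = 15), with 0.3 mg/kg of TNFR-Ig, a decoy receptor for TNF (n = 12), with 10 mg/kg of the antibody mP2D10 against the TNF family cytokine TWEAK (n = 14), or with both agents at those doses (n = 15, "combination"). The TNFR-Ig mice received no antibody. Mice came from 2 experiments, 7 (34 arrays) and 10 (38 arrays), and the naive mice belong to experiment 10 alone. RNA came from pieces of rolled frozen colon, so how much follicle each piece held is not known from the labels. In such tissue, fewer cells of a type and less RNA per cell cannot be told apart.

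Array medians lay between 4.60 and 4.77 on the log2 scale, and no pair of arrays was identical. The colon epithelium markers, 6 of 6 tested, were bright on every array, with a mean level between 14.22 and 14.53. Exocrine pancreas markers (3 tested) had a mean level from 5.59 to 13.65 between arrays, and covaried little with Cxcl13 (r = 0.11) or Ccl20 (r = -0.05). The labels of naive replicate 1 contradict each other, and it stayed in the naive group. A pair of experiment 7 combination arrays (replicates 7 and 8) carries the array name prefix of experiment 10.

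The promoter windows of the 2 genes whose level changed in at least 1 comparison are shown because both are textbook targets of NF-kB signalling, the pathway in the study's title. They run from 250 bases before to 50 bases after the start site in RefSeq (build GRCm38.p6, plus strand, Cxcl13 at chr5:95956689-95956988 and Ccl20 at chr1:83116516-83116815). Capitals mark the 10-base NF-kB consensus in Ccl20 and TATAAA in Cxcl13.
Cxcl13 promoter: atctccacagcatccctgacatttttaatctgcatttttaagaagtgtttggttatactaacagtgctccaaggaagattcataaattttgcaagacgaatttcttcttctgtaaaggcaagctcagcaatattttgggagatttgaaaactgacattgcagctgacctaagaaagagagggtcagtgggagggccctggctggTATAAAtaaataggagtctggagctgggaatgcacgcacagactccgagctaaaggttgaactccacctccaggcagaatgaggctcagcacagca
Ccl20 promoter: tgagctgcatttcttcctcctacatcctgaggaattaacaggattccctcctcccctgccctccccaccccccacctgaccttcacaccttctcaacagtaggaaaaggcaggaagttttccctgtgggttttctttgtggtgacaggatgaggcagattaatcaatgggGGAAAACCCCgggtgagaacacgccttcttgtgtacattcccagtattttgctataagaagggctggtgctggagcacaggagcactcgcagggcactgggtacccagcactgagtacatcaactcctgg
The NF-kB consensus was searched on both strands and TATAAA likewise. Ccl20 held 1 NF-kB match, which starts at -80 from the start site and reads GGGGTTTTCC on the minus strand. Cxcl13 held none in this window, and its TATAAA starts at -46. A match to the NF-kB consensus was present in 4.51% of 32851 windows of the same 300-base length, and TATAAA in 13.6%. Among the other members, Ltb held 1 NF-kB match, at -87, and reads GGGACTTTCC on the minus strand. Of the 2 windows of Ccr6, 1 held 3 overlapping matches around -81. Ltbr and Ccl19 held no NF-kB match, and 6 members had a window in all. A match describes letters, not binding.

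The B cell chemokine Cxcl13 rose in untreated colitis. Its gene lies at chr5:95956939-95961068 (GRCm38.p6), that of Ccl20 at chr1:83116766-83119167 and that of Ltbr at chr6:125306571-125313885. In the 8 naive mice its log2 level was lowest at 9.26, 9.70 at the median and highest at 10.72. In untreated colitis of experiment 7 the 4 mice read 10.92, 12.16, 12.86 and 13.49, and in experiment 10 they read 11.85, 12.41, 13.09 and 13.12. All 8 untreated colitic mice lay above all 8 naive mice. The fitted difference was +2.56 ± 0.47 (log2, SE; 5.88-fold; limma, adjusted p = 7.02e-06). Within experiment 10, the one that holds both groups, the difference of means was +2.83 and the groups did not overlap (exact permutation test, two-sided, p = 0.00202; 0.0485 after Benjamini-Hochberg adjustment over 48 such tests of the 3 genes). A second probe set of Cxcl13 gave +2.68.

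Cxcl13 was the 1 member called in this comparison, in which 47.8% of the 12534 tested genes were called. Its change was larger in size than that of all but 1.61% of them. Several marker lists moved with it: all 5 macrophage markers rose (median +1.70), all 5 neutrophil markers rose (median +7.15), and of 7 tested B cell markers only Cd72 rose, although the median was +0.75. The mean level of the macrophage markers ran from 8.58 to 9.53 in naive mice and from 9.86 to 11.19 in untreated colitis. For the B cell markers it ran from 3.70 to 5.96 and from 4.25 to 7.22. All 5 markers of fibroblasts and reticular stroma, the textbook source of Cxcl13 in follicles, rose as well (median +0.57), and their mean level ran from 11.88 to 12.21 in naive mice and from 12.45 to 13.00 in untreated colitis. Of 5 endothelial markers 3 rose and 1 fell (median +1.02), while 5 of 6 colon epithelium markers fell (median -0.11) and 4 of 4 smooth muscle markers fell (median -0.40). The part of these cells in the Cxcl13 difference was not tested.

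Ccl20, the chemokine of follicle epithelium, was not called in the same comparison. Its log2 level ran from 4.51 through a median of 5.03 to 5.94 in naive mice. In untreated colitis the 4 mice of experiment 7 read 2.44, 4.30, 4.46 and 4.52, and those of experiment 10 read 2.66, 3.68, 4.70 and 5.08. Of the 8 colitic mice, 5 lay below every naive mouse and the others overlapped them. The fitted difference was -0.95 ± 0.47 (limma, adjusted p = 0.0921). It passed the threshold in experiment 10 alone (-1.06, adjusted p = 0.0442), without the experiment term (-1.11, adjusted p = 0.0410) and after quantile normalization (-1.15, adjusted p = 0.0397). Over the 12 alternatives it ran from -1.15 to -0.45 and stayed uncalled in 9. In experiment 10 the exact permutation test gave p = 0.0364, or 0.194 after adjustment over 48 tests.

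Ltbr, the receptor on stroma and epithelium, was not called. Its log2 level ran from 9.35 to 9.69 in naive mice and from 9.22 to 9.77 in untreated colitis, with medians of 9.53 and 9.60. The groups overlapped almost entirely. The difference was +0.09 (95% confidence interval -0.09 to 0.27, adjusted p = 0.442).

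**Figure D1:**
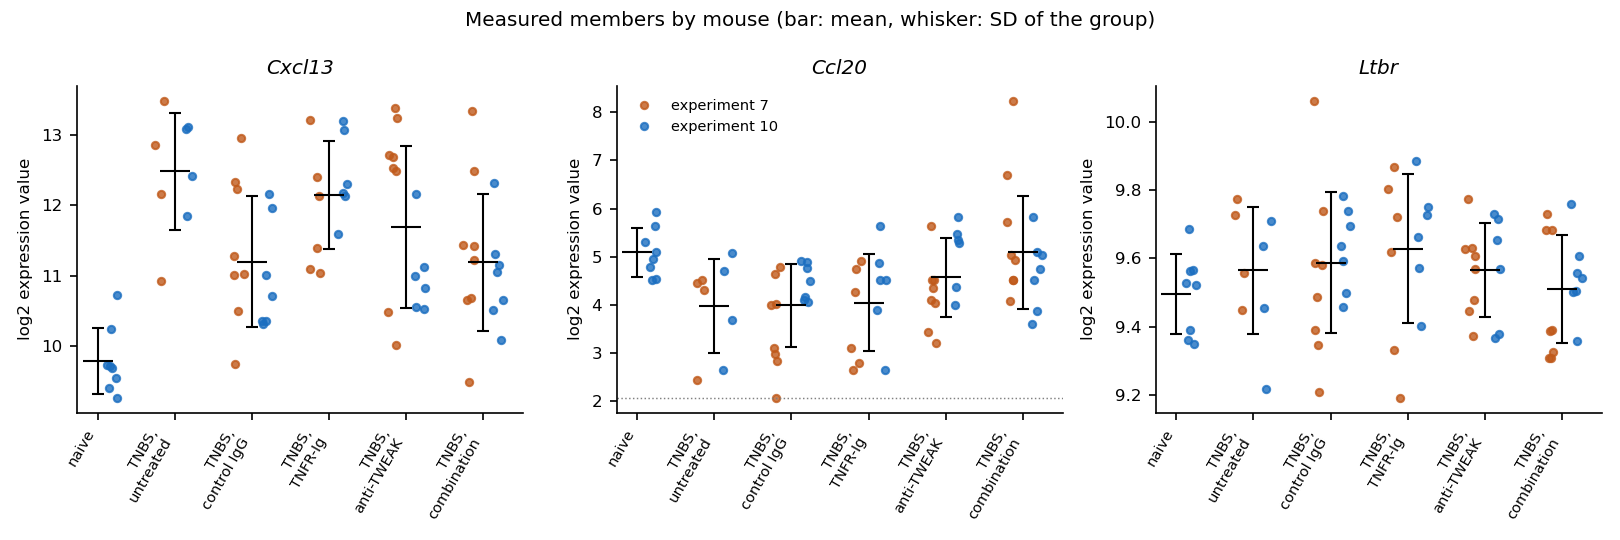
Log2 expression value (vertical axes, each with its own range) of Cxcl13, Ccl20 and Ltbr for each mouse by group (horizontal axis), coloured by experiment; bars are group means and whiskers the SD, and the dotted line in the Ccl20 panel is the floor of the table. Cxcl13 lies lowest in naive mice (median 9.70) and highest in untreated colitis (median 12.64), 1 combination mouse of experiment 7 reads 8.23 for Ccl20, and Ltbr stays between 9.19 and 10.06.

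Cxcl13 was lower in mice given the control antibody than in untreated colitis. In the 15 control IgG mice its log2 level was 9.74 at the lowest, 11.01 at the median and 12.96 at the highest. Of these mice, 6 lay below every untreated mouse, while 3 of the 8 untreated mice lay above every control IgG mouse, so the groups overlapped. The level fell by 1.30 ± 0.40 on the log2 scale against untreated colitis (2.46-fold lower, adjusted p = 0.0272). In experiment 10 alone the difference was -1.63 (limma, adjusted p = 0.00632). The exact permutation test there gave p = 0.015, or 0.121 after adjustment over 48 tests. In experiment 7 alone the difference was -0.97 and was not called (limma, adjusted p = 0.689). The test of the difference between the experiments gave -0.66 ± 0.78 (adjusted p = 0.726).

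Cxcl13 was the 1 member called here, beside 10.3% of all tested genes. The call did not hold when the fit used the compared groups alone (adjusted p = 0.0517), nor without any 1 of 5 untreated mice, namely replicates 2 and 3 of experiment 7 and replicates 2, 3 and 5 of experiment 10 (adjusted p from 0.0539 to 0.0703). All 5 macrophage markers fell as well (median -0.71), and their mean level ran from 9.47 to 10.57 under control IgG. In experiment 10 alone 4 of these 5 fell; in experiment 7 alone none was called, where 0.0479% of all genes were. Of the 5 fibroblast and reticular stroma markers 4 fell (median -0.23), with a mean level from 12.33 to 12.77 under control IgG, and of the 5 endothelial markers 3 fell (median -0.54). In experiment 7 alone none of either list was called, and in experiment 10 alone 0 and 1 fell. Of the 5 neutrophil markers 1 fell (median -0.96), of the 6 colon epithelium markers 1 rose (median +0.06), and none of the 7 B cell markers was called (median -0.22). The part of these cells in the Cxcl13 difference was not tested. Ccl20 and Ltbr differed by 0.02 each between these groups (adjusted p = 0.982 and 0.882). For Ccl20 the 95% interval, from -0.78 to 0.82, was wide.

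Under TNFR-Ig no difference of Cxcl13 from untreated colitis was called. Its log2 level was 11.04 at the lowest, 12.16 at the median and 13.22 at the highest in 12 mice, and all 12 lay above every naive mouse. Both of these groups were free of antibody, and they differed by -0.34 ± 0.41 (adjusted p = 0.711; 95% interval -1.16 to 0.48). No member was called between them by limma, none had an unadjusted p under 0.05, and 3.01% of all tested genes were called.

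Against control IgG, Cxcl13 under TNFR-Ig differed by +0.96 ± 0.35, short of the threshold (adjusted p = 0.0964, unadjusted p = 0.00778). TNFR-Ig mice had no antibody, so TNFR-Ig and the lack of an antibody cannot be told apart in this comparison. Of the 15 control IgG mice, 9 lay below every TNFR-Ig mouse. In experiment 10 the exact permutation test of this difference gave p = 0.00758, or 0.0727 after adjustment over 48 tests. The difference was +1.43 in experiment 10 alone (limma, adjusted p = 0.00608) and +0.50 in experiment 7 alone. The test between the experiments gave +0.94 ± 0.69 (adjusted p = 0.650). With array weights the difference over both experiments passed the threshold (+1.01, limma, adjusted p = 0.0306). In this comparison 3 of the 5 macrophage markers rose (median +0.49), as did 2 of 5 fibroblast and reticular stroma markers (median +0.23) and 2 of 5 endothelial markers (median +0.43). No member was called in the fit over both experiments, where 4.08% of all tested genes were. Ccl20 differed by +0.05 ± 0.36 and Ltbr by +0.04 ± 0.07.

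With anti-TWEAK the 14 mice spread widely in Cxcl13. In experiment 7 its log2 level was 10.01 at the lowest, 12.61 at the median and 13.39 at the highest of 8 mice, with 6 mice at 12.48 or above and the other two at 10.01 and 10.48. In experiment 10 the 6 mice ran from 10.53 through a median of 10.91 to 12.17. The difference from control IgG was +0.49 ± 0.34 over both experiments (adjusted p = 0.486), +0.81 in experiment 7 and +0.05 in experiment 10. The test between the experiments gave -0.76 ± 0.66 (adjusted p = 0.546).

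Ccl20 under anti-TWEAK ran from 3.20 through a median of 4.44 to 5.83. It differed from control IgG by +0.60 ± 0.34 (adjusted p = 0.377), with +0.67 in experiment 7 and +0.56 in experiment 10. No member was called by limma in this comparison, none had an unadjusted p under 0.05, and 2.8% of all tested genes were called. Ltbr differed by -0.02 ± 0.07.

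The combination had the highest mean Ccl20 of the colitic groups. The control IgG mice had a log2 level of 2.08 at the lowest, 4.10 at the median and 4.91 at the highest, while the 15 combination mice had 3.61, 4.93 and 8.23. Of the combination mice, 8 lay above every control IgG mouse, so the groups overlapped. Ccl20 rose by 1.11 ± 0.34 on the log2 scale against control IgG (2.15-fold, adjusted p = 0.00982). It was the 1 member called, beside 31.2% of all tested genes, and its change was larger in size than that of all but 1.09% of them.

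The rise of Ccl20 was called in 1 of the 2 experiments. In experiment 7 the 8 control IgG mice had a median of 3.55 and the 8 combination mice a median of 4.98, a difference of +1.91 (adjusted p = 0.0212; exact permutation p = 0.00342, or 0.0547 after adjustment over 48 tests). In experiment 10 the medians were 4.50 and 4.76, a difference of +0.19 that was not called (adjusted p = 0.777). The test of the difference between experiments gave -1.72 ± 0.65 (unadjusted p = 0.0100), which did not pass over all genes (adjusted p = 0.365). The highest value, 8.23, belongs to one of the pair of arrays with the other experiment's name prefix; without that pair the difference was +0.84 (adjusted p = 0.0423). Leaving out any 1 of 30 mice gave differences between +0.87 and +1.23, all called.

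In the fit over both experiments lymphocyte genes rose in the combination, as Ccl20 did. Of the 7 tested B cell markers 5 rose against control IgG (median +0.70), among them Ms4a1, which encodes CD20, by 1.50 ± 0.53 (adjusted p = 0.0254) and Cd79b, a subunit of the B cell receptor, by 1.30 ± 0.37 (adjusted p = 0.00608). Of the 6 tested T cell markers 5 rose (median +0.65), beside 31.2% of all tested genes called. The same counts were 5 and 5 without the pair of arrays, but 0 and 3 in experiment 7 alone, where 8.45% of genes were called, and 1 and 0 in experiment 10 alone, where 17.6% were. The mean level of the B cell markers ran from 3.47 to 6.46 under control IgG and from 3.82 to 6.58 under the combination. For the T cell markers it ran from 3.32 to 5.14 and from 3.77 to 6.57. The part of lymphocytes in the Ccl20 difference was not tested.

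No difference of Cxcl13 between the combination and control IgG was called. Its log2 level in the combination was 9.49 at the lowest, 11.15 at the median and 13.34 at the highest. The difference was -0.01 ± 0.33 (95% interval -0.67 to 0.65, adjusted p = 0.987), with -0.04 in experiment 7 and +0.03 in experiment 10. At the same time 4 of the 5 neutrophil markers fell (median -1.52) and none of the 5 macrophage markers was called (median +0.04). Ltbr differed by -0.08 ± 0.06 (adjusted p = 0.377).

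Against TNFR-Ig alone, both chemokines differed in the combination but neither passed the threshold. Combination mice had an antibody and TNFR-Ig mice had none. The added TWEAK blockade and the presence of an antibody therefore cannot be told apart in this comparison. Cxcl13 differed by -0.97 ± 0.35 (adjusted p = 0.0777, unadjusted p = 0.00723), and 6 of 15 combination mice lay below every TNFR-Ig mouse. Ccl20 differed by +1.06 ± 0.36 (adjusted p = 0.0564, unadjusted p = 0.00416), with +1.71 in experiment 7 and +0.32 in experiment 10. In experiment 10 alone the Cxcl13 difference was -1.41 and was called (limma, adjusted p = 0.0124), while in experiment 7 alone it was -0.54. The exact permutation test in experiment 10 gave p = 0.0052, or 0.0629 after adjustment over 48 tests. No member was called in the fit over both experiments, beside 6.71% of all tested genes. Whether they passed turned on single mice. Cxcl13 passed without any 1 of 5 mice (adjusted p from 0.0323 to 0.0471) and stayed uncalled in 22 of 27 such fits. Ccl20 passed without any 1 of 6 (from 0.0374 to 0.0489) and stayed uncalled in 21 of 27. The mice for Cxcl13 were TNFR-Ig replicates 5 and 7 and combination replicates 1 and 7 of experiment 7, and combination replicate 2 of experiment 10. Those for Ccl20 were TNFR-Ig replicates 1 and 7 of experiment 7 and replicate 6 of experiment 10, and combination replicates 2, 5 and 6 of experiment 10.

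Between the combination and anti-TWEAK alone no gene was called. Cxcl13 differed by -0.50 ± 0.34, Ccl20 by +0.51 ± 0.34 and Ltbr by -0.06 ± 0.07, and limma called 0% of all tested genes, although 2258 genes had an unadjusted p under 0.05. Departure from additivity was taken as the combination minus each single agent plus untreated colitis, a sum in which the antibody cancels. It was -0.16 ± 0.53 for Cxcl13, +0.44 ± 0.54 for Ccl20 and -0.12 ± 0.10 for Ltbr. No member was called and none had an unadjusted p under 0.05, beside 0.71% of all genes called. The 95% interval of Ccl20, from -0.64 to 1.51, was wide.

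Under the combination Cxcl13 was above its naive level. Of the 15 combination mice 9 lay above every naive mouse, and the fitted difference was +1.25 ± 0.41 (2.38-fold, adjusted p = 0.0197). In experiment 10 alone it was +1.22 (exact permutation p = 0.00171, or 0.0485 after adjustment over the 48 tests). Cxcl13 was the 1 member called, beside 25.3% of all tested genes, and 5 of 5 macrophage markers (median +1.00), 5 of 5 fibroblast and reticular stroma markers (median +0.38), 4 of 5 neutrophil markers (median +4.90) and 6 of 7 B cell markers (median +1.07) rose in the same comparison. Ccl20 differed by +0.18 ± 0.42 and Ltbr by +0.03 ± 0.08.

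Ordered by mean log2 level, Cxcl13 ran from untreated colitis (12.49 ± 0.84, SD) through TNFR-Ig (12.15 ± 0.76), anti-TWEAK (11.70 ± 1.16), control IgG (11.20 ± 0.93) and the combination (11.19 ± 0.97) to naive (9.79 ± 0.48). Each neighbouring pair of colitic groups in this order differed by less than the SD of either group; the step to naive mice was larger than the SD. Ccl20 ran from the combination (5.10 ± 1.17) and naive mice (5.10 ± 0.51) through anti-TWEAK (4.58 ± 0.82), TNFR-Ig (4.05 ± 1.01) and control IgG (3.99 ± 0.86) to untreated colitis (3.98 ± 0.97). The top and bottom neighbours were level, and only the step from naive mice to anti-TWEAK was larger than the SD of one of its groups. Ltbr ran from 9.63 under TNFR-Ig to 9.50 in naive mice, with no step above its SD.

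**Figure D2:**
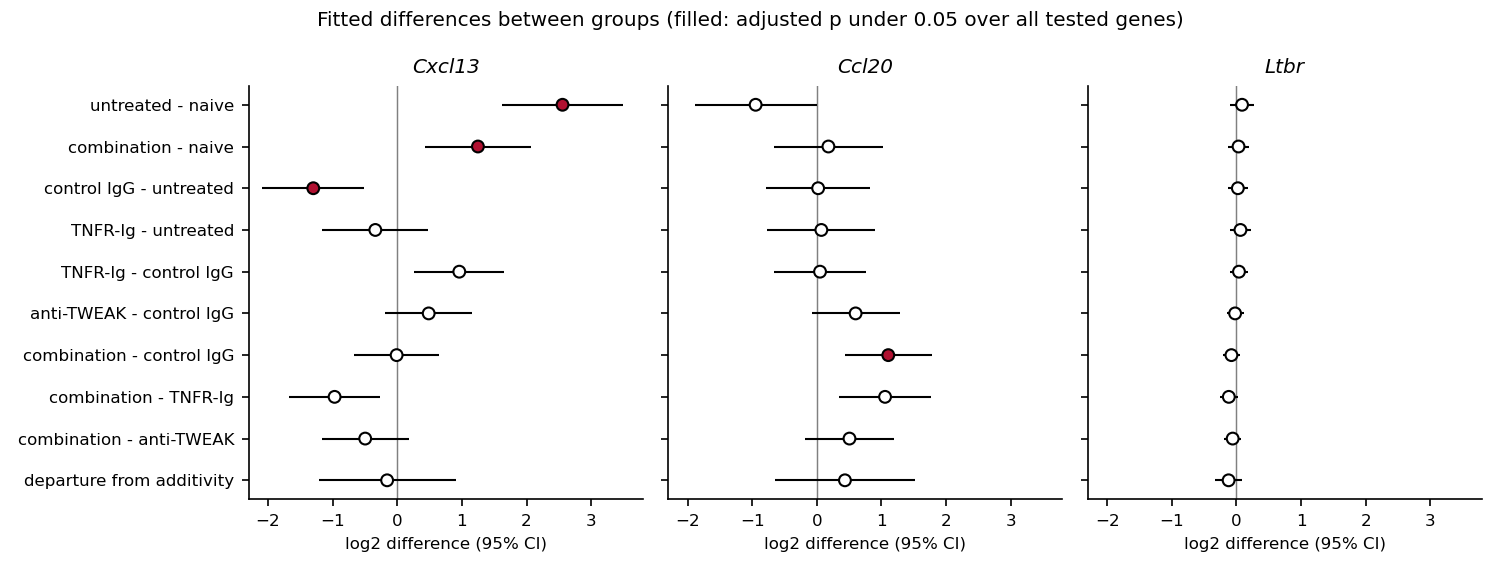
Fitted log2 difference (horizontal axis) with its 95% confidence interval for 10 comparisons (rows) in Cxcl13, Ccl20 and Ltbr; filled points have an adjusted p under 0.05 over all tested genes. Cxcl13 is filled for untreated minus naive (+2.56), combination minus naive (+1.25) and control IgG minus untreated (-1.30), Ccl20 for combination minus control IgG (+1.11), and Ltbr for none. Comparisons that share a group are not independent.

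Between the experiments themselves, 44.5% of all tested genes were called, but no member was: experiment 10 minus 7 gave -0.29 ± 0.23 for Cxcl13, +0.33 ± 0.23 for Ccl20 and +0.04 ± 0.04 for Ltbr, with no unadjusted p under 0.05. All 7 tested B cell markers were higher in experiment 10 (median +0.60). For the tests of whether a comparison differed between experiments, 0.016% of all genes were called for control IgG minus untreated, 0% for TNFR-Ig minus control IgG, 1.72% for anti-TWEAK minus control IgG and 0.0319% for the combination minus control IgG. No member was called in any of these 4 tests. Of the 12 tests of the 3 measured members 1, that of Ccl20 given above, had an unadjusted p under 0.05. In that test, of the combination minus control IgG, 1200 genes did. For TNFR-Ig minus control IgG, where 0% were called, 1301 genes did.

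The receptors Cxcr5, Ccr7 and Ccr6 and the ligand Ltb were not measurable in this table. Its floor is 2.08 on the log2 scale, and 37.5% of all values lie within 0.1 of it. Cxcr5, the receptor for Cxcl13, was at the floor on all 72 arrays. Ccr7 was within 0.1 of the floor on 68 arrays and reached 3.59 on 1, a combination mouse of experiment 7. Ltb, which joins lymphotoxin alpha to form the ligand of Ltbr, was within that margin on 66 arrays and reached 2.43. Ccr6 was within it on 53 arrays, and 33 arrays gave the same value, 2.15; its highest was 4.03, in an untreated mouse of experiment 10. A value at the floor gives an upper bound on the signal of that probe set, not an absence of the transcript. When no filter on dim genes was used, none of the 4 was called in any of the 15 comparisons. Ccl20 itself was within 0.1 of the floor on 1 array, and 5 arrays gave it the same value, 4.52.

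**Figure D3:**
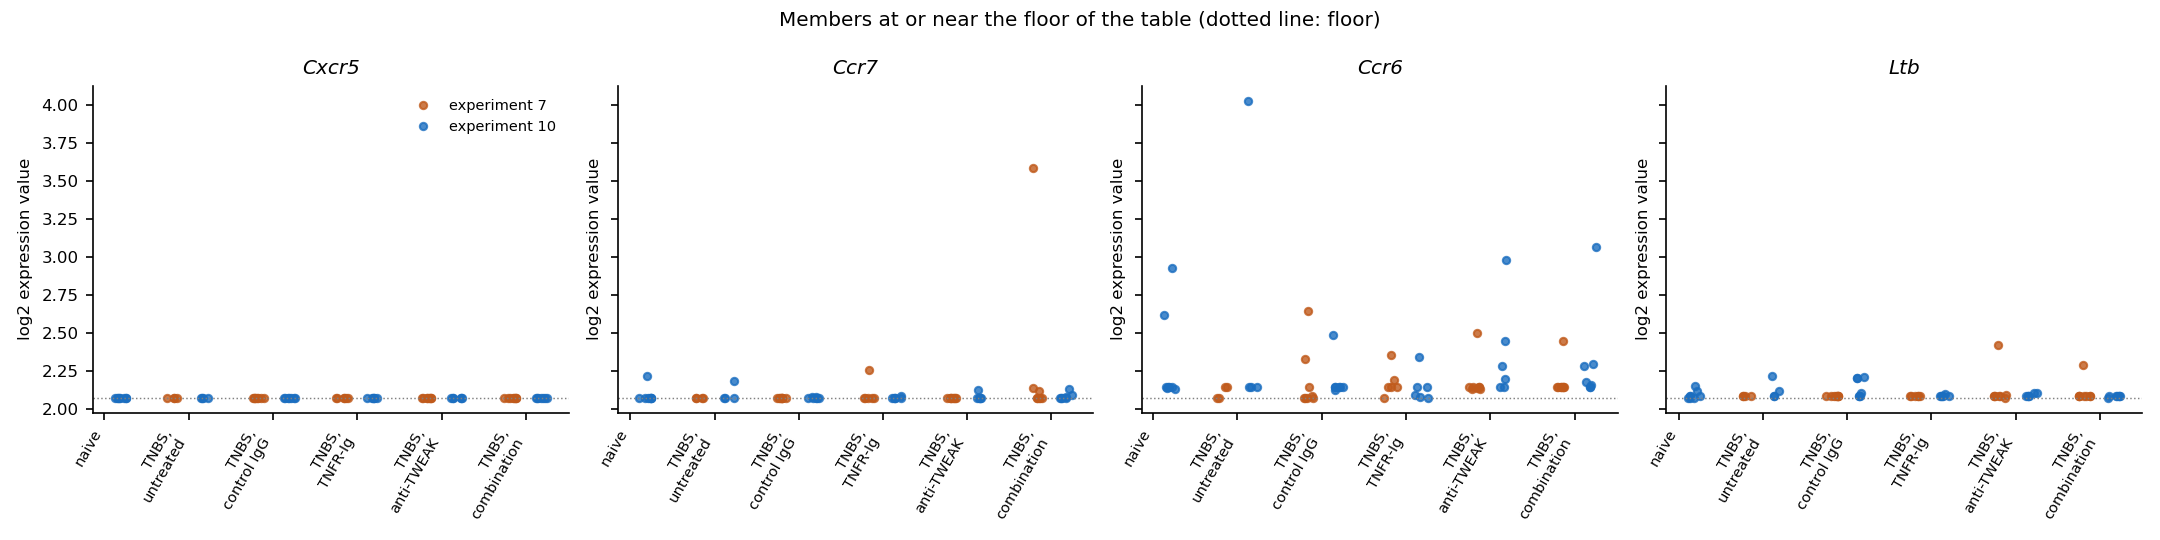
Log2 expression value (vertical axis, shared) of Cxcr5, Ccr7, Ccr6 and Ltb for each mouse by group (horizontal axis), coloured by experiment; the dotted line is the floor, 2.08. Nearly all points lie on or just above the line, with single mice at 3.59 for Ccr7 and 4.03 for Ccr6.

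Other genes of the pathway were bright enough to test in part. The counts of the pathway lists stand beside these shares of all tested genes called. They were 47.8% for untreated colitis minus naive, 10.3% for control IgG minus untreated and 31.2% for the combination minus control IgG. In the lymphotoxin and related TNF family list 5 of 9 genes were tested; Lta, which encodes lymphotoxin alpha, and Tnfsf14, which encodes the second Ltbr ligand LIGHT, were too dim. In untreated colitis 1 of the 5 rose and 1 fell (median +0.27 beside -0.01 for all tested genes). Tnfsf11, the cytokine RANKL, rose by 4.19 ± 0.64 (adjusted p = 2.26e-07). It fell by 2.65 ± 0.55 with control IgG (adjusted p = 0.00181), the 1 call of the list there (median -0.22 beside +0.03). Tnfsf13b, the B cell survival factor BAFF, fell by 0.31 ± 0.11 in colitis (adjusted p = 0.0197). In the combination against control IgG 2 of the 5 rose (median +0.16 beside -0.00): Tnfrsf13c, the BAFF receptor of B cells, by 1.36 ± 0.44 (adjusted p = 0.0152), and Tnfrsf13b, another receptor of this family, by 0.49 ± 0.14 (adjusted p = 0.00530). Neither of these 2 rises was called in experiment 7 alone or in experiment 10 alone, where no gene of the list was. With control IgG 1 gene rose and 1 fell in experiment 10 alone, and none was called in experiment 7 alone.

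In the non-canonical NF-kB list 1 gene fell in colitis and 1 rose in the combination. Of the 5 tested genes of 8, Nfkb2, whose product p100 is processed to p52, fell by 0.32 ± 0.09 in colitis (adjusted p = 0.00373) and rose by 0.18 ± 0.07 in the combination against control IgG (adjusted p = 0.0357). Relb, its partner, differed by -0.24 ± 0.12 in colitis (adjusted p = 0.102). Birc2, Birc3 and Traf2, which encode the complex that holds the pathway off, were called in neither comparison. The list medians were +0.01 and +0.08. The counts in experiment 10 alone were 1 higher and 2 lower in colitis, and 2 higher in the combination against control IgG. No gene of the list was called in the combination in experiment 7 alone, or without the pair of arrays.

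Of the other homeostatic chemokine and positioning genes, 10 of 12 were tested. In colitis 5 rose and 1 fell (median +0.15), beside 47.8% of all tested genes called. Those that rose most were Ch25h, whose product begins the synthesis of an oxysterol that guides B cells, by 1.58 ± 0.31 (adjusted p = 3.33e-05), Cxcr4 by 1.46 ± 0.15 (adjusted p = 4.45e-12), S1pr1 by 0.90 ± 0.21 (adjusted p = 0.000254) and Cxcl12, the ligand of Cxcr4, by 0.74 ± 0.12 (adjusted p = 5.09e-07). With control IgG 4 of the 10 fell (median -0.20), among them S1pr1 by 0.68 ± 0.18 and Cxcl12 by 0.58 ± 0.10. With control IgG 2 rose and 3 fell in experiment 10 alone, and none was called in experiment 7 alone. None was called in the combination against control IgG (median +0.03).

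Lymphocyte adhesion genes were tested for 6 of 10, and 3 rose in colitis (median +0.34), near the 47.8% of all tested genes called. Icam1 rose by 1.91 ± 0.25 (adjusted p = 3.46e-09) and Vcam1 by 1.47 ± 0.17 (adjusted p = 1.52e-10), both ligands for integrins of white blood cells, and Chst4, an enzyme of high endothelial venules, by 0.49 ± 0.13 (adjusted p = 0.00146). Madcam1, the gut homing ligand, was too dim. Vcam1 was the 1 gene of the list that fell with control IgG (by 0.55 ± 0.15, list median -0.37). In the combination against control IgG 2 rose (list median -0.07), beside 31.2% of all tested genes called. They were Glycam1, a venule mucin, by 1.14 ± 0.43 (adjusted p = 0.0357), and Itga4, an integrin chain, by 0.29 ± 0.08 (adjusted p = 0.00274). In this last comparison none was called in experiment 7 alone, and in experiment 10 alone none rose and 1 fell. Nor was the fall with control IgG called in either experiment alone.

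The inducer and type 3 lymphoid list had 5 of 10 genes tested, and in colitis 1 rose and 1 fell (median +0.14). Il7, a survival factor of lymphoid cells, fell by 0.52 ± 0.10 (adjusted p = 1.12e-05) and Ahr, a transcription factor needed for gut lymphoid cells, rose by 0.15 ± 0.06 (adjusted p = 0.0204). Il17a and Il22 were among the genes not tested, as dim or without a single-symbol probe set. With control IgG 1 gene fell, Id2 by 0.29 ± 0.09 (list median -0.10). Il7r rose by 0.62 ± 0.22 in the combination against control IgG (adjusted p = 0.0274), and Ahr by 0.11 ± 0.04 (list median +0.14). By experiment 10 alone, 3 genes rose and 1 fell in colitis, 1 rose and 2 fell with control IgG, and 1 rose in the combination against control IgG. None was called in either of these 2 comparisons with control IgG in experiment 7 alone, and without the pair of arrays 1 rose in the combination.

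**Figure D4:**
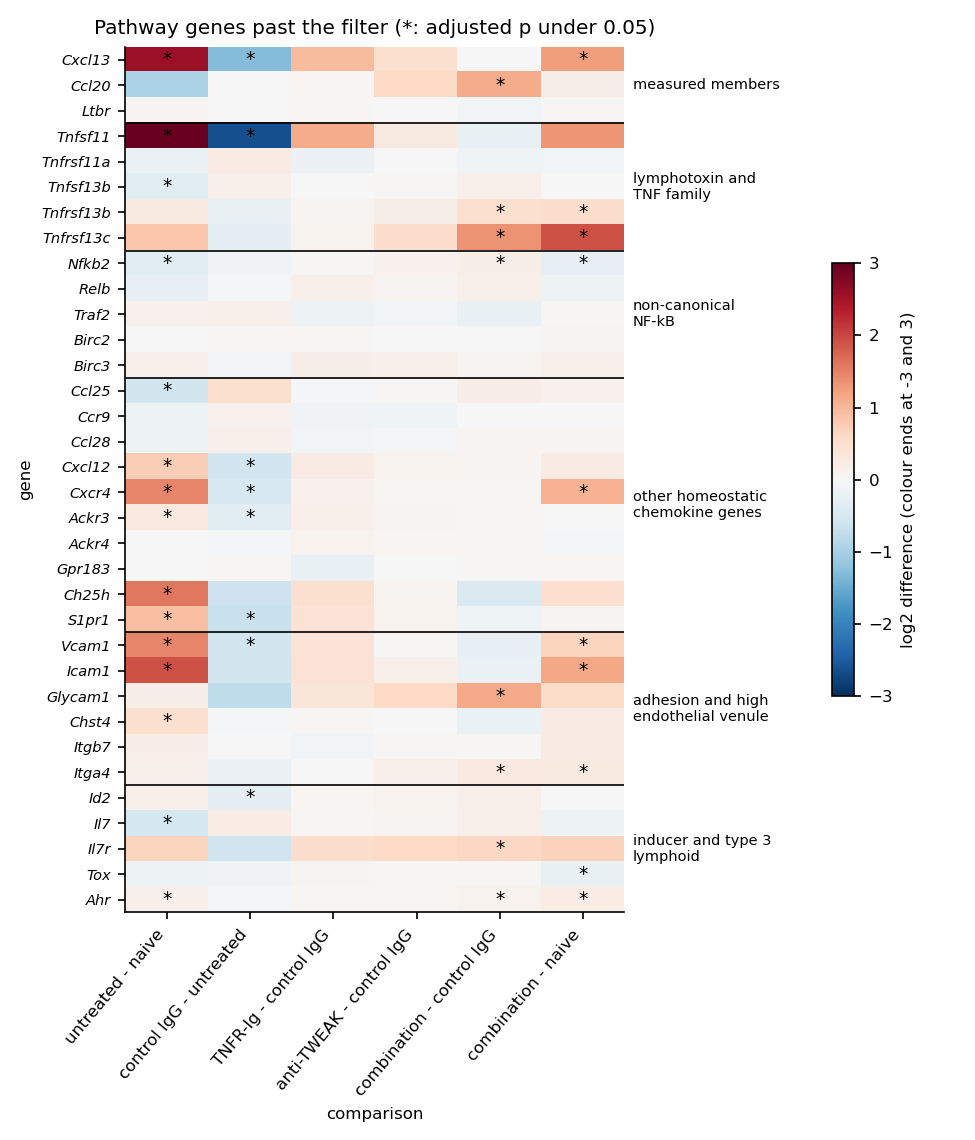
Fitted log2 difference (colour, ending at -3 and 3) of the 3 measured members and the tested genes of the 5 pathway lists (rows) in 6 comparisons (columns); an asterisk marks an adjusted p under 0.05. Tnfsf11 (+4.19) and Cxcl13 (+2.56) have the deepest red of the untreated minus naive column, and Tnfsf11 (-2.65) the deepest blue of the control IgG minus untreated column.

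The 3 measured members varied differently from mouse to mouse. Within group and experiment the pooled SD was 0.90 for both Cxcl13 and Ccl20, above that of 96.6% and 96.5% of tested genes, and 0.18 for Ltbr, near the median gene (0.17). Each array's deviations from the mean of its group and experiment were then correlated between genes over the 72 arrays, which share their processing and 11 group means, and the values are given as a description. The members covaried only weakly with each other: r was 0.33 for Cxcl13 and Ccl20, 0.39 for Cxcl13 and Ltbr and 0.10 for Ccl20 and Ltbr.

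The genes whose deviations were closest to those of Cxcl13 were Serpina3n, an acute phase protease inhibitor (r = 0.91, or 0.97 in experiment 7 and 0.81 in experiment 10), Crispld2 (0.87), Slc10a6 (0.86), Pla2g7, which encodes an enzyme that degrades platelet-activating factor (0.86), and Sla, a signalling adaptor of white blood cells (0.86). Over all other tested genes 95% of r values lay between -0.64 and 0.64. With the mean of the macrophage markers r was 0.69 (0.71 and 0.68 in the 2 experiments), with fibroblast and reticular stroma markers 0.46, with neutrophil markers 0.60 and with colon epithelium markers -0.75. With B cell markers it was 0.29 and with T cell markers -0.22.

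Ccl20 had no such close companion. Its highest r values were with Birc3, an inhibitor of apoptosis induced by NF-kB (0.56), Bach2, a transcription factor of B and T cells (0.53), Tnfrsf13c (0.52), Zfp740 (0.51) and Cxcr4 (0.51), where 95% of tested genes lay between -0.29 and 0.32. For Cxcr4 it was 0.67 in experiment 7 and 0.21 in experiment 10. With the mean of the B cell markers r was 0.45 (0.54 and 0.38), with T cell markers 0.14 (0.16 and 0.12) and with macrophage markers 0.13. The named genes closest to Ltbr were Eif3d, a translation factor subunit (0.84), Drg2 (0.83), Gtf2f1, a general transcription factor subunit (0.83), Tmem214 (0.82) and Gnb2 (0.82). Its r with the non-canonical NF-kB list was 0.29.

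**Figure D5:**
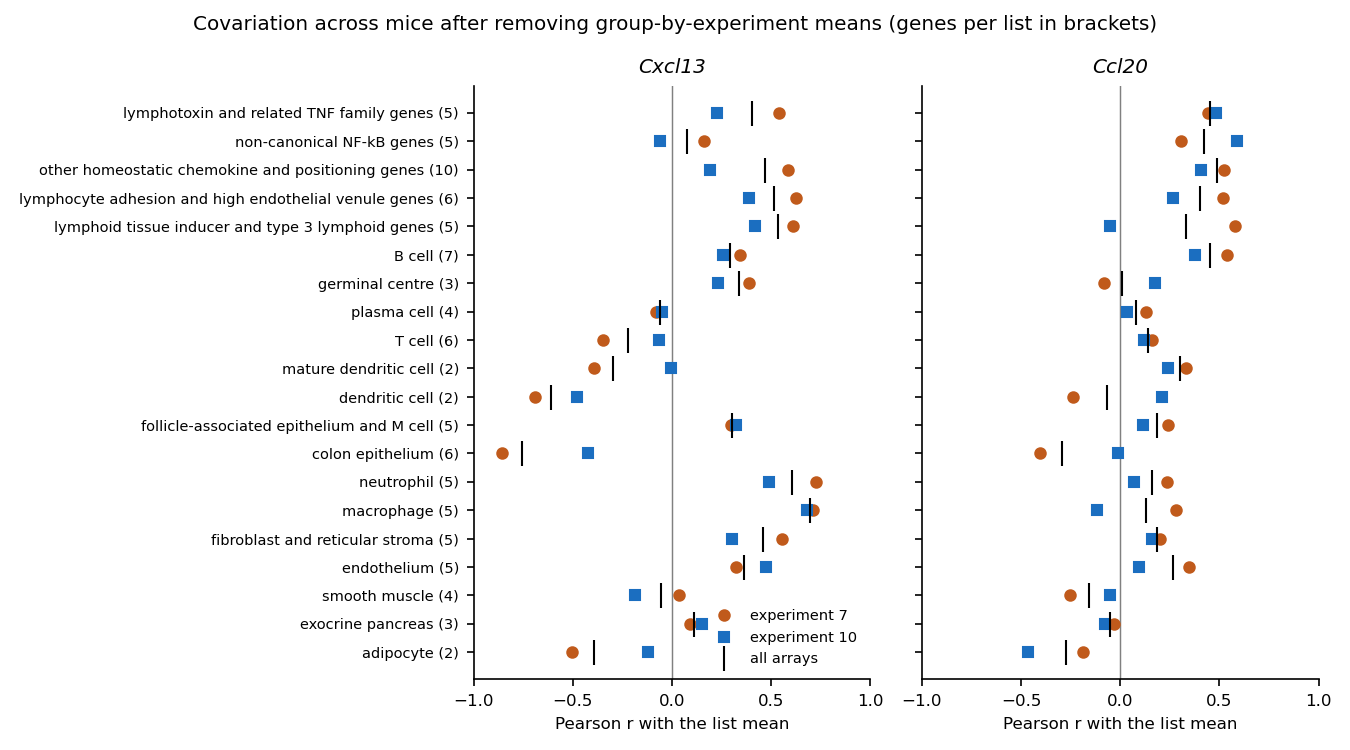
Pearson r (horizontal axis) between Cxcl13 (left) or Ccl20 (right) and the mean of each gene list (rows, number of tested genes in brackets), after the mean of each group and experiment was removed; circles are experiment 7, squares experiment 10 and bars all 72 arrays. Cxcl13 reaches 0.69 with the macrophage list and -0.75 with the colon epithelium list, and Ccl20 reaches 0.45 with the B cell list.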

How the data were processed

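Per the labels, mouse colon RNA was hybridised to 72 one-colour arrays. The deposited table holds 1 log2 value per probe set, normalised by the authors. The submitters' processing notes name limma 3.4.5, GCRMA, RMA and R 2.11.1; no role is stated for any of them. The deposited log2 values have a floor of 2.08, so low levels are compressed. The number of arrays, not read depth, limits the precision.

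Of 45101 probe sets 34945 carry 1 symbol by the platform annotation. The brightest per gene was kept, genes with a mean below the 40th percentile of probe set means (2.42) were left out of the fit, and 12534 genes were tested. With limma 3.58.1 (R 4.3.3, eBayes) 1 linear model of group plus experiment was fitted over the 72 arrays, and a gene counted as called if its p, adjusted by Benjamini-Hochberg over all tested genes, was under 0.05. Differences between experiments were contrasts of 11 group-by-experiment means. Permutation tests within experiments, and list counts within experiments and without 2 arrays, were added after seeing the data. Procedures were tested on simulated data. The correlation analysis and plots used Python 3.11.15.

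The genes named are the 8 members, their 5 most similar genes (predicted and clone names left out), up to 4 called genes of each pathway list, and list members where a count is small. Ms4a1, Cd79b and other markers named beside a count were chosen after their values were seen. The members, 5 pathway lists and 15 marker lists were chosen with earlier results of these data known. Promoters came from RefSeq (GRCm38.p6). Alternatives covered the filter, probe set, experiment term, samples in the fit, normalization, array weights, moderation, a replicate block and each array in turn.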

Additional observations from a re-analysis of the deposited data

Results flagged for a closer look

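In each experiment and group, values were checked for an array far from the rest. A set was checked only if its highest value lay above 2.42, the cut for dim genes. For genes near the floor a set thus entered only through its high array, so no chance rate can be given. Of the 43 sets checked, 11 were set apart. Most belong to genes near the floor, where the other arrays share nearly the same value: 7 sets of Ccr6, 1 of Ccr7 and 1 of Ltb. The Ccr6 values were 4.03 in an untreated mouse of experiment 10, 3.07 and 2.45 in combination mice of experiments 10 and 7, 2.98 and 2.50 in anti-TWEAK mice of experiments 10 and 7, and 2.65 and 2.49 in control IgG mice of experiments 7 and 10. Ccr7 stood at 3.59 in a combination mouse of experiment 7 (replicate 2), whose nearest neighbour read 2.14. Ltb stood at 2.43 in an anti-TWEAK mouse of experiment 7.

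Among the measured members, Ccl20 was low in 1 untreated mouse of experiment 7 (2.44, with the nearest other at 4.30). Cxcl13 was high in 1 anti-TWEAK mouse of experiment 10 (12.17, with the nearest other at 11.12).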

How the results depend on the processing

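The rise of Cxcl13 in untreated colitis (from +2.53 to +2.83) held under all 12 alternatives. So did its rise in the combination over naive mice (from +1.03 to +1.40) and the count of members called in that comparison. Counts of members called otherwise changed as follows. For untreated minus naive 2 members were called, in place of 1, without the experiment term, in experiment 10 alone and after quantile normalization. For control IgG minus untreated 0 were called, in place of 1, in experiment 7 alone (Cxcl13 -0.97) and with the compared groups alone, and 0 to 1 when single arrays were left out. For TNFR-Ig minus control IgG 1 was called, in place of 0, in experiment 10 alone and with array weights. For the combination minus control IgG 0 were called, in place of 1, in experiment 10 alone (Ccl20 +0.19). For the combination minus TNFR-Ig, in place of 0, 1 was called in experiment 10 alone, 2 with array weights (Cxcl13 -1.11 and Ltbr -0.17), 1 without the pair of experiment 7 combination arrays that carry the name prefix of experiment 10, and 0 to 2 when single arrays were left out. For experiment 10 minus 7, 1 was called with array weights (Ccl20 +0.51). No called value reversed.

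The number of all tested genes called moved by over 1.5 times in many settings, mostly downward in experiment 7 alone and upward in experiment 10 alone or with array weights. Over the alternatives it ran from 6 to 2237 for control IgG minus untreated (1296 in the fit reported), 0 to 1950 for TNFR-Ig minus control IgG (512), 0 to 789 for TNFR-Ig minus untreated (377), 0 to 1873 for anti-TWEAK minus control IgG (351), 1059 to 4389 for the combination minus control IgG (3908), 11 to 2218 minus TNFR-Ig (841), 0 to 305 minus anti-TWEAK (0) and 2881 to 4888 minus naive (3174), and 0 to 415 for additivity (89). For differences between experiments it ran from 0 to 87 for control IgG minus untreated (2), from 147 to 535 for anti-TWEAK minus control IgG (215) and from 4 to 25 for the combination minus control IgG (4).

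The replicate block, with the replicate number within experiment as a random block, had a consensus correlation of -0.02. By this estimate arrays of the same number shared no detectable variation, but the labels do not say what the numbers mean. The block changed none of 60 results, and Cxcl13 in untreated colitis was +2.57 with it. Array weights ran from 0.20 to 2.42. Signal limits what can be said of Cxcr5, Ccr7, Ccr6 and Ltb, which lie at or near the floor.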

Other observations

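Genes of neighbouring follicle compartments, from marker lists not described above, moved in part with colitis. The 3 tested germinal centre genes of 5, Bcl6, Mybl1 and S1pr2, rose in untreated colitis by 0.45 ± 0.12, 0.76 ± 0.17 and 1.24 ± 0.17 (limma, adjusted p = 0.00172, 0.000265 and 8.30e-09). Of all tested genes 47.8% were called in untreated colitis and 31.2% in the combination against control IgG. All 3 germinal centre genes fell in the combination against control IgG, by 0.31 ± 0.09, 0.43 ± 0.12 and 0.30 ± 0.12, while 5 of 7 B cell markers rose there. Within single experiments 1 of the 3 was called lower in experiment 7 and none in experiment 10, and 2 were without the pair of experiment 7 combination arrays that carry the name prefix of experiment 10. Other cells also express these genes.

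In the list for follicle-associated epithelium and M cells, 3 of 5 genes rose in untreated colitis, beside 47.8% of all tested genes called. They were Tnfaip2 by 2.05 ± 0.22, Marcksl1 by 1.73 ± 0.12 and Ccl9 by 1.34 ± 0.11. The M cell receptor Gp2 differed by +0.99 ± 1.35 and Spib, a transcription factor of M cells and B cells, by -0.19 ± 0.36, and neither was called. In the test of control IgG minus untreated between the experiments Gp2 gave +6.23 ± 2.20. The exocrine pancreas markers there gave +9.64 (Cpa1), +11.85 (Ctrb1) and +0.48 (Cela1), and none of these was called. The part of pancreas tissue in the Gp2 values was not tested. In the combination against control IgG Spib rose by 0.84 ± 0.26 (adjusted p = 0.0100), while Tnfaip2, Marcksl1 and Ccl9 fell by 0.48 ± 0.15, 0.33 ± 0.09 and 0.23 ± 0.08. None of the 5 genes was called in that comparison in experiment 7 alone or in experiment 10 alone. Of 4 tested plasma cell genes 3 rose in the combination against control IgG, beside 31.2% of all tested genes called. Among them was Mzb1, by 0.68 ± 0.23. The plasma cell count was 1 in experiment 7 alone, 0 in experiment 10 alone and 2 without the pair of arrays. The mature dendritic cell list had 2 tested genes, the activation marker Cd83 and Fscn1. In the combination against control IgG Cd83 rose by 0.85 ± 0.18 (adjusted p = 0.000400), while Fscn1 differed by -0.01 ± 0.08 (adjusted p = 0.952). In untreated colitis against naive mice the differences were -1.25 ± 0.26 for Cd83 and +0.92 ± 0.11 for Fscn1, both called.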
